A study of Mus musculus with 10 samples.

Results

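The 10 genes described here encode channels that open when a membrane is stretched or a cell swells (Piezo1, Trpm7, Trpv2, Trpv4, Tmem63a, Tmem63b and Lrrc8a), the caveolins Cav1 and Cav2, and cytosolic phospholipase A2 (cPLA2, gene Pla2g4a). They were taken by symbol from the deposited table of 57010 mouse gene identifiers, and all 10 were among the 12455 that were tested, which average 10 or more normalized reads per library. The libraries come from macrophages grown for 7 days from femoral marrow. The mice were either wild-type (WT) or knockouts (WKO) of the Wiskott-Aldrich syndrome protein WASp, an activator of branched actin assembly in blood cells. All 4 groups were cultured in RPMI with 20 ng/mL macrophage colony-stimulating factor (MCSF). There were 2 libraries of WT unconfined cells, 2 of WKO unconfined cells, 3 of WT confined cells and 3 of WKO confined cells, each made from 5 ng of total RNA. Confined cells were held for 1 h at a height of 3 µm under a ceiling carried by silicone (PDMS) micropillars, and unconfined cells are labelled as controls. The mouse strain, the age and number of mice, and whether the libraries of a group come from different mice are not given in the sources used here, so p-values measure the spread between these libraries, which may be technical. The labels name no knockout allele.

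Cells sense compression in several ways. Piezo1 is a calcium-permeable channel that opens directly under membrane tension. Trpv4 and Trpv2 are calcium-permeable channels of the vanilloid TRP family, and Trpm7 joins a magnesium- and calcium-permeable pore to a kinase domain. Tmem63a and Tmem63b belong to the OSCA/TMEM63 family of stretch-activated ion channels, and Lrrc8a is the subunit that volume-regulated anion channels cannot do without. Caveolins form caveolae, membrane pits that flatten under tension. cPLA2 is recruited by calcium to the membrane of a stretched nucleus, where it frees arachidonic acid, the precursor of prostaglandins and leukotrienes. Macrophages express Piezo1, and its opening in these cells lets calcium in and changes their actin and inflammatory responses.

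Recovered depth was 13295701 to 19329908 reads per library, and 3 reads, the detection floor used here, correspond to a normalized count of 2.35 to 3.59, for counting error only. The targeted gene Was stood at 1474 ± 234 (SD, n = 2) in WT unconfined and 148 ± 8.82 (n = 2) in WKO unconfined cells, and at 1612 ± 40.1 (n = 3) in WT confined and 107 ± 15.5 (n = 3) in WKO confined cells, in the direction of the labels. All 10 macrophage markers listed were well expressed, with summed counts of 232239 to 260396 in WT and 282480 to 349171 in WKO libraries. Markers of other cells were also present, and the stromal sum was higher in every WKO library than in the WT libraries of the same condition. The 18 stromal markers summed to 325 to 2348 in WT libraries and to 1297 to 13713 in WKO libraries, none of them was at 0 in all libraries, and 17 of 18 were highest in WKO confined replicate 5, a library that stands apart in this list. Neutrophil and progenitor markers summed to 2557 to 10861 in WT and 6991 to 29904 in WKO libraries, and B lineage markers to 410 to 874 and 1572 to 5198. In such bulk samples a change in the share of a cell type and a change of RNA per cell cannot be told apart.

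Of the 10 genes, 3 passed the test in at least 1 comparison: Piezo1 fell in WKO cells, Trpv4 rose in WKO cells, and Lrrc8a rose with confinement. Of all genes tested, 5.57% passed for WKO against WT over both conditions and 6.21% for confinement over both genotypes. The share that passed in at least 1 comparison was not counted. The RefSeq promoters of the 3 genes are shown first because these members passed, though the Lrrc8a call is weak. Each runs from 250 bases before to 50 after the annotated start (GRCm38.p6), 5′ to 3′ on the gene's strand. Capitals mark matches on either strand to GGGCGG, the box bound by SP and KLF factors, and to TGACGTCA, the cyclic AMP response element (CRE).
Piezo1, chr8:122551280-122551579, minus strand: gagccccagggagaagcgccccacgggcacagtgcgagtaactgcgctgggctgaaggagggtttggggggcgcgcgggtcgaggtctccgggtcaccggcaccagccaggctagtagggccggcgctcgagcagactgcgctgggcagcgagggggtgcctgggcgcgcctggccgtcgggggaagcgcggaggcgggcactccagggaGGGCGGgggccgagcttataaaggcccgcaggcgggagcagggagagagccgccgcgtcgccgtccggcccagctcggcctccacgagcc
Trpv4, chr5:114658372-114658671, minus strand: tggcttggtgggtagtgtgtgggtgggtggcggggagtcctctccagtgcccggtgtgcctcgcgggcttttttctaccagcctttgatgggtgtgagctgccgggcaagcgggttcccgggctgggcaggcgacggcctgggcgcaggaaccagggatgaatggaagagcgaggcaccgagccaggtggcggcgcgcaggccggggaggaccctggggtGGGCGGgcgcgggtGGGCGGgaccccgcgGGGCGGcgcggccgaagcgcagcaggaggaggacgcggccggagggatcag
Lrrc8a, chr2:30237519-30237818, plus strand: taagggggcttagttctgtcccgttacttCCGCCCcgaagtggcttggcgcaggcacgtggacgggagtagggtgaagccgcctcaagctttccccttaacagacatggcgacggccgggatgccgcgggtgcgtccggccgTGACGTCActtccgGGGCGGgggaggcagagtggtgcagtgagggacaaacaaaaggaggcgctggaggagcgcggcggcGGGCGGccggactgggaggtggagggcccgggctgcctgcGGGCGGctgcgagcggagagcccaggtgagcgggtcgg

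All 3 windows are rich in G and C, at 75% for Piezo1, 73% for Trpv4 and 70% for Lrrc8a, against a median of 52.7% over 32851 RefSeq promoter windows of this length. The Piezo1 window holds 1 GGGCGG box, Trpv4 holds 3 and Lrrc8a holds 4, and 35.7% of all windows hold at least 1. The CRE letters occur once, in Lrrc8a, starting at position -108 from the start site, and are found in 1.79% of all windows. The letters TGANTCA (AP-1, in 7.81% of windows), GGAATG (TEAD, 14.7%), GAGGAAGT (PU.1, 3.20%) and GCGTGGGCG (EGR, 0.612%) occur in none of the 3, nor do the CArG box (1.63%) and the NF-kB site (4.51%). Matches on both strands were counted, and overlapping matches were allowed. These are matches of letters and not measured binding sites.

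Per kb of exon, the 10 genes spanned a wide range. Piezo1 was the most abundant, at 743 ± 179.7 normalized reads per kb (SD over 10 libraries), followed by Trpv2 at 508 ± 60.7 and Cav2 at 390.5 ± 54.2. A middle tier held Trpm7 at 149 ± 14.6, Tmem63a at 121 ± 13.4, Tmem63b at 88.6 ± 14.2 and Pla2g4a at 53.2 ± 8.87. Trpv4 at 34.3 ± 18.5, Lrrc8a at 23.5 ± 10.9 and Cav1 at 8.40 ± 10.1 were the lowest. Each gene was above the next in this order in all 10 libraries, except that Trpm7 was above Tmem63a in 9, Pla2g4a above Trpv4 in 9 and Trpv4 above Lrrc8a in only 6. The order of Trpv4 and Lrrc8a differed by group. Mean Trpv4 was above Lrrc8a in WT unconfined (23.2 against 15.1), WKO unconfined (45.8 against 13.1) and WKO confined cells (51.4 against 33.4). It was below Lrrc8a in WT confined cells (16.9 against 26.3). The order was the same per kb of the longest annotated transcript, which uses the same counts. The place of Lrrc8a is uncertain, since other gene models overlap 68.3% of its exon bases and the handling of shared reads is not given.

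**Figure D1:**
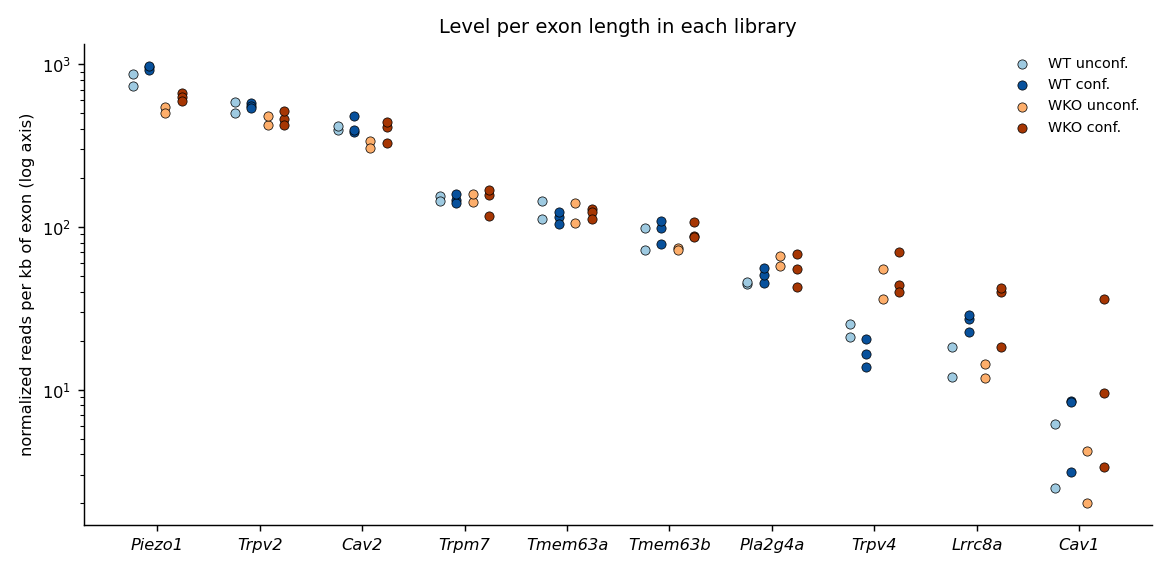
Normalized reads per kb of exon (log axis) of each of the 10 genes, ordered by mean, with 1 point per library coloured by group. Piezo1 leads in every library, with a margin over the next channel, Trpv2, of 1.05 to 1.81 times, and Cav1 is the lowest in all 10.

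Piezo1 (ENSMUSG00000014444, GRCm38 chromosome 8, 122481698 to 122551329, minus strand) was lower in WKO cells whether or not they were confined. Its normalized count was 8685 and 7297 in the WT unconfined libraries and 5474 and 5013 in the WKO unconfined ones. In confined cells it was 9629, 9142 and 9736 in WT and 6656, 6265 and 5876 in WKO. The lowest WT library lay above the highest WKO library, so that the 5 WT and 5 WKO values do not overlap. Over both conditions the log2 difference was -0.60 (SE 0.0778, 95% interval -0.77 to -0.43, limma adjusted p = 0.0015), or 0.658 of the WT level. In confined cells alone the log2 difference was also -0.60 (SE 0.0984, adjusted p = 0.011, limma). In unconfined cells it was -0.60 (SE 0.121) and did not pass (adjusted p = 0.0898, limma). It passed in 5 of 18 alternative fits (such as other methods or 1 library left out). Among these were the limma fits without WKO confined replicate 1 (adjusted p = 0.045) or 5 (adjusted p = 0.0246). Leaving out 1 library, the unconfined difference ranged from -0.73 to -0.48. Without WT confined replicate 2 the confined difference missed the threshold (adjusted p = 0.0557), while that over both conditions passed without any 1 library.

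Of the 10 genes, Piezo1 and Trpv4 passed in WKO against WT over both conditions and also in confined cells. Of all genes tested, 5.57% passed over both conditions and 2.59% in confined cells. In unconfined cells 0 of 10 passed with limma (2 at an unadjusted p under 0.05, 0 with edgeR and 1, Piezo1, with DESeq2), where 0.145% of all genes passed and 9.6% had an unadjusted p under 0.05. The same 2 genes were the only members with no overlap between the 5 WT and the 5 WKO libraries, a pattern seen for 6.71% of all genes tested. The median log2 difference of the 10 genes over both conditions was 0.00, as it was over all genes tested.

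The Piezo1 count carries an annotation limit. A share of 24.6% of its exon bases is overlapped by Ctu2, a tRNA modification gene on the opposite strand, and whether strand was used in counting is not given in the sources used here. Ctu2 itself was counted at 153 to 251 normalized reads, and its log2 difference over both conditions was -0.14 (adjusted p = 0.731, limma). The stromal sum in WKO confined replicate 2 (1297) was within the range of WT libraries, though above the WT confined libraries (325 to 1052), and Piezo1 in that library (6265) was below every WT library. Its neutrophil and progenitor sum (27958) and B lineage sum (3526) were above every WT library. In WKO confined replicate 5 the neutrophil and progenitor sum (6991) was within the WT range, with Piezo1 at 5876. The part of these cells in the Piezo1 difference was not tested. Without WKO confined replicate 5, Piezo1's log2 difference was -0.58 over both conditions (adjusted p = 0.000639, limma).

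With confinement, Piezo1 differed by 0.25 on the log2 scale in WT (adjusted p = 0.381, limma) and by 0.26 in WKO cells (adjusted p = 0.322). Over both genotypes the log2 difference was 0.26 (95% interval 0.09 to 0.43, adjusted p = 0.0785), which did not pass with limma. It passed in only 2 of 17 alternative fits: DESeq2 (adjusted p = 0.042) and limma without WKO confined replicate 5 (adjusted p = 0.043). In each genotype all confined libraries lay above both unconfined ones. The difference between the genotypes' responses was 0.00 (95% interval -0.34 to 0.34).

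**Figure D2:**
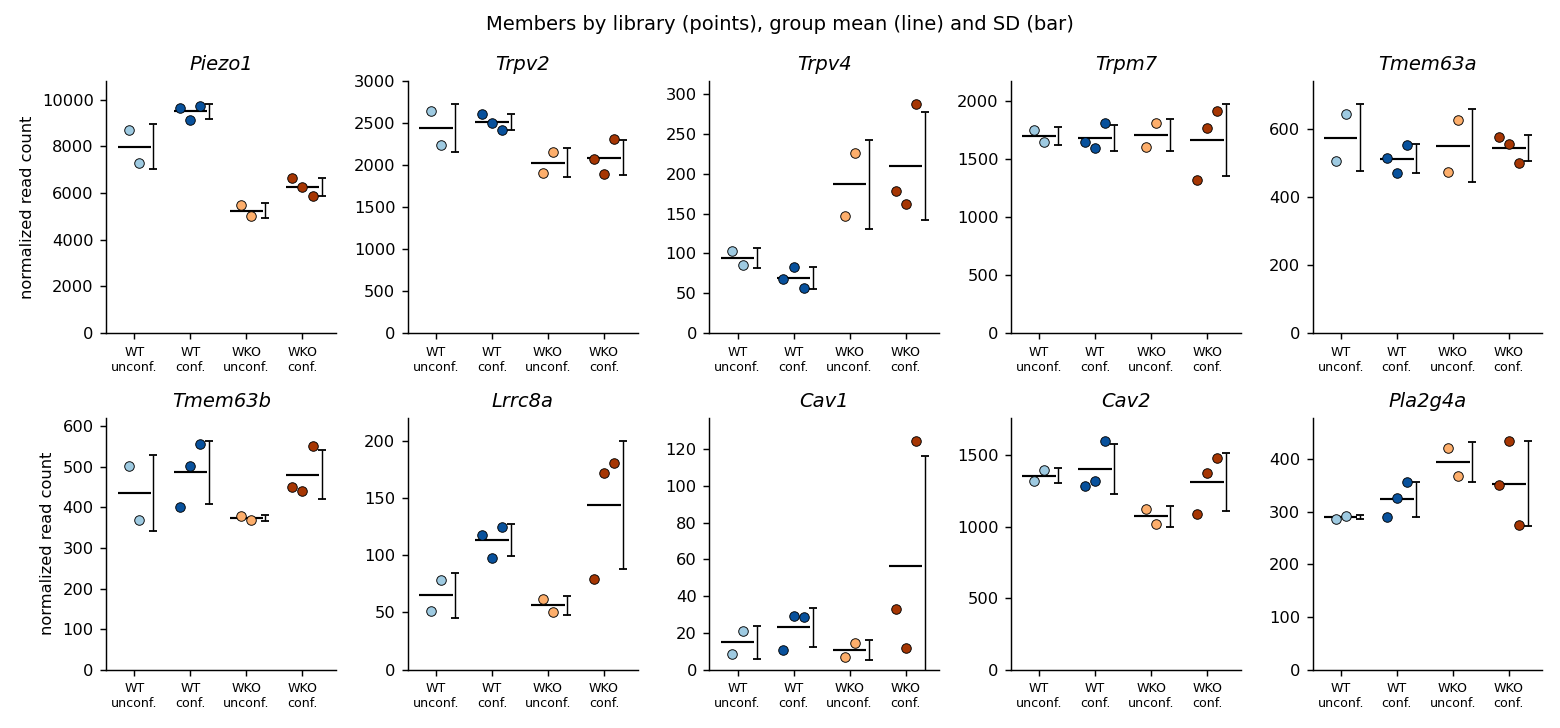
Normalized read count of each of the 10 genes by library (points) with the group mean (line) and SD (bar, cut at 0 for Cav1), for WT and WKO cells, unconfined and confined. Piezo1 is lower and Trpv4 higher in every WKO library than in any WT library, and Lrrc8a is higher in every confined library than in any unconfined one.

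Trpv4 (ENSMUSG00000014158, chromosome 5, 114622152 to 114658421, minus strand) moved the other way from Piezo1. Its normalized count was 104 and 85.4 in WT unconfined and 147 and 226 in WKO unconfined libraries. In confined cells it was 67.5, 83.3 and 56.2 in WT and 179, 162 and 288 in WKO. Every WKO library was above every WT library. The log2 difference over both conditions was 1.25 (SE 0.211, 95% interval 0.79 to 1.71, limma adjusted p = 0.00617), or 2.38 times the WT level. It was 1.56 in confined cells (SE 0.267, adjusted p = 0.013, limma) and 0.95 in unconfined cells (SE 0.327, adjusted p = 0.358), and the difference between these was 0.61 (95% interval -0.31 to 1.53), which did not pass the test of the difference itself (adjusted p = 0.999).

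Confinement itself gave no passing difference for Trpv4. The log2 difference was -0.46 in WT (adjusted p = 0.588, limma) and 0.15 in WKO cells (adjusted p = 0.859). The 3 WT confined libraries were all below the 2 WT unconfined ones, and the WKO groups overlapped. The call in confined cells was lost without WT confined replicate 2 (adjusted p = 0.0557) or 6 (adjusted p = 0.0503), and that over both conditions without WKO unconfined replicate 3 (log2 difference 1.10, adjusted p = 0.0531).

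Markers of other cells also differed between these libraries. In WKO confined cells 10 of the 16 stromal markers tested passed as higher, where 2.59% of all genes passed in either direction. WKO confined replicate 5, with the highest Trpv4 count (288), also had the highest stromal sum (13713). Its neutrophil and progenitor sum (6991) was within the WT range of 2557 to 10861, and its B lineage sum (1572) was the lowest of the WKO libraries. Without that library the log2 difference of Trpv4 was 1.31 in confined cells (adjusted p = 0.0161, limma) and 1.13 over both conditions (adjusted p = 0.00316). WKO confined replicate 2 had a stromal sum of 1297, within the WT range of 325 to 2348 but above the WT confined libraries (325 to 1052). Trpv4 in that library was 162, above every WT library. Its neutrophil and progenitor sum was 27958, above every WT library. The part of stromal, neutrophil and B lineage cells in the Trpv4 difference was not tested. Endothelial cells also express Trpv4, and their 10 markers summed to 1860 to 3871, most of it Vwf. Only Vwf, Kdr and Cdh5 had a mean of at least 10 (2441, 73.8 and 16.4), and none of these 3 passed in either direction.

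**Figure D3:**
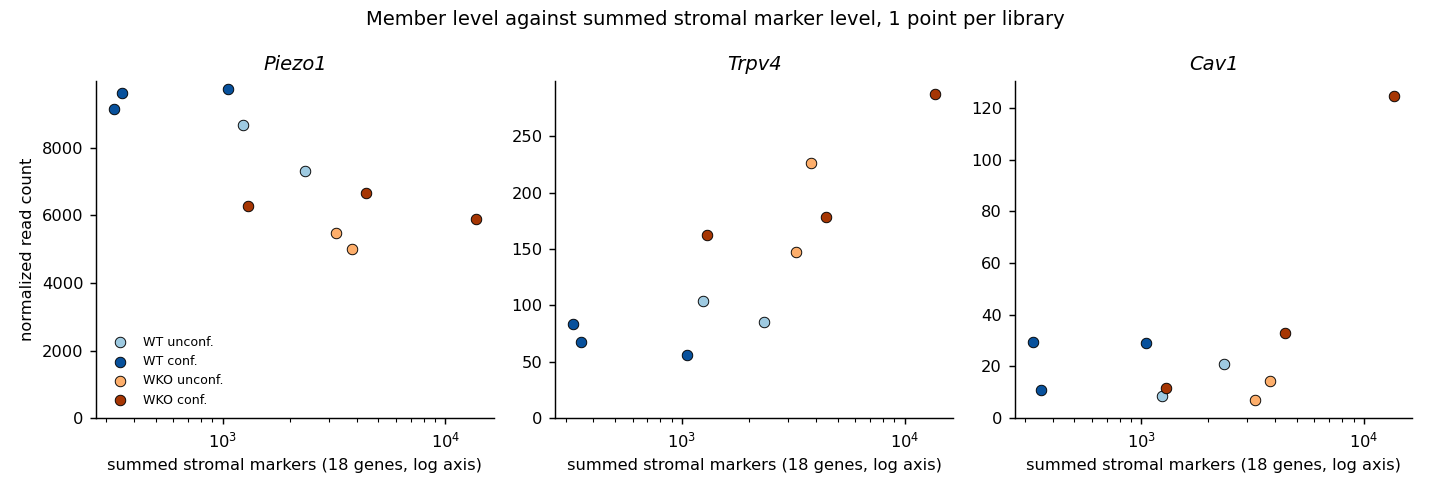
Normalized read count of Piezo1, Trpv4 and Cav1 against the summed count of 18 stromal markers (log axis), 1 point per library coloured by group. WKO confined replicate 5 lies at the far right in each panel with the highest Trpv4 (288) and Cav1 (125). On the stromal axis WKO confined replicate 2 (1297) lies within the range of all WT libraries but above the WT confined ones (325 to 1052). For Trpv4 (162) it lies above all WT libraries.

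Trpv2 (ENSMUSG00000018507), the other vanilloid channel and the second most abundant channel per kb, was lower in WKO libraries within each condition but did not pass. It stood at 2647 and 2241 in WT unconfined and at 1910.0 and 2152 in WKO unconfined libraries. In confined cells it stood at 2613, 2506 and 2423 in WT and at 2069, 1892 and 2310.1 in WKO. The groups did not overlap within either condition, but WKO confined replicate 5 was above WT unconfined replicate 3. The log2 difference was -0.26 in unconfined cells (adjusted p = 0.591, limma), -0.27 in confined cells (adjusted p = 0.238) and -0.27 over both (95% interval -0.46 to -0.08, adjusted p = 0.101). Without WKO confined replicate 5 it passed over both conditions (-0.30, adjusted p = 0.0389), the only 1 of 17 alternative fits in which it did. Within conditions, groups that did not overlap were common among all genes tested (44.9% in unconfined and 21.1% in confined cells), and 5 and 3 of the 10 members showed this.

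Trpm7 (ENSMUSG00000027365), the channel with a kinase domain, was the steadiest of the TRP members, between 1319.6 and 1915 in the 10 libraries. Both extremes were WKO confined libraries. Its log2 difference was -0.01 for WKO against WT over both conditions (95% interval -0.25 to 0.22) and -0.03 for confinement over both genotypes, and neither passed.

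The OSCA/TMEM63 channels Tmem63a (ENSMUSG00000026519) and Tmem63b (ENSMUSG00000036026) did not pass in any comparison. Tmem63a ranged from 472 (WT confined replicate 3) to 646 (WT unconfined replicate 3), with log2 differences of 0.01 (95% interval -0.24 to 0.27) for genotype and -0.08 for confinement. Tmem63b ranged from 369 to 556, with -0.11 (95% interval -0.39 to 0.18) for genotype and 0.26 (95% interval -0.03 to 0.54, adjusted p = 0.28, limma) for confinement. All 3 WKO confined libraries of Tmem63b (451, 441 and 549.97) were above both WKO unconfined ones (379 and 369), and the WT groups overlapped. Exons of other genes overlap 3.50% of the Tmem63a and 7.73% of the Tmem63b exon bases.

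Lrrc8a (ENSMUSG00000007476, chromosome 2, 30237715 to 30263790, plus strand) rose with confinement, taking both genotypes together. Its normalized count was 51.3 and 78.7 in WT unconfined and 62.2 and 50.6 in WKO unconfined libraries. It was 118, 97.4 and 125 in WT confined and 79.2, 172 and 181 in WKO confined libraries. The 6 confined libraries were all above the 4 unconfined ones, but only just: the lowest confined value was 79.2 and the highest unconfined value 78.7. The log2 difference over both genotypes was 1.03 (SE 0.251, 95% interval 0.49 to 1.58, limma adjusted p = 0.0336), or 2.05 times the unconfined level. It was 0.82 in WT (SE 0.355, adjusted p = 0.386, limma) and 1.25 in WKO cells (SE 0.355, adjusted p = 0.123), neither of which passed. Without WKO confined replicate 1, the lowest of the confined libraries, the WKO difference was 1.63 and passed (adjusted p = 0.00801, limma). It passed in 2 of 18 alternative fits in all, over which it ranged from 0.77 to 1.63. The difference between these responses was 0.44 (95% interval -0.66 to 1.53), and the genotype difference over both conditions was 0.04 (95% interval -0.51 to 0.59).

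Lrrc8a was the 1 member of 10 that passed for confinement over both genotypes, where 6.21% of all genes passed (4.13% as higher and 2.07% as lower), and the 1 member without overlap there, a pattern seen for 7.39% of all genes. Within WT and within WKO cells, 0 of 10 members passed with limma (2 at an unadjusted p under 0.05 in each, 0 with edgeR, and 0 in WT and 1 in WKO cells with DESeq2), against 1.16% and 1.72% of all genes that passed and 12.2% and 14.1% at an unadjusted p under 0.05. Groups did not overlap for 3 of 10 members in WT and 3 of 10 in WKO cells, against 35.9% and 28.3% of all genes. The Lrrc8a call is weak: it was lost when low genes were kept in the test (adjusted p = 0.0674, limma) and without 8 of the 10 libraries left out singly, and it was kept only without WKO confined replicate 1 or 5 (without replicate 5, log2 difference 0.93, adjusted p = 0.0399). Its count is uncertain as well, since 68.3% of its exon bases are shared with Gm28035, a same-strand gene model listed at 0 in all libraries, or overlap the antisense 1700084E18Rik (0 to 9.38).

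Volume-regulated anion channels join Lrrc8a with other LRRC8 subunits, of which 3 could be tested. Lrrc8b was 429 and 450.1 in WT unconfined, 375 and 348 in WKO unconfined, 749.9, 729.7 and 673 in WT confined and 462, 607 and 991 in WKO confined libraries. It rose with confinement over both genotypes, by 0.78 on the log2 scale (SE 0.172, adjusted p = 0.0211, limma). Lrrc8d rose as well, by 0.51 (SE 0.131, adjusted p = 0.0405), from 1168 to 1314 in unconfined to 1358 to 2399 in confined libraries. Lrrc8c, named here after its values were seen, did not pass (0.71, adjusted p = 0.0536). All 3 were highest in WKO confined replicate 5. Without that library they differed by 0.63 (adjusted p = 0.0031), 0.41 (adjusted p = 0.015) and 0.54 (adjusted p = 0.0205) in the order Lrrc8b, Lrrc8d and Lrrc8c. Lrrc8b kept its call in 4 and Lrrc8d in 2 of the 10 fits that leave out 1 library. Lrrc8e was at or below 3.14 in every library.

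**Figure D4:**
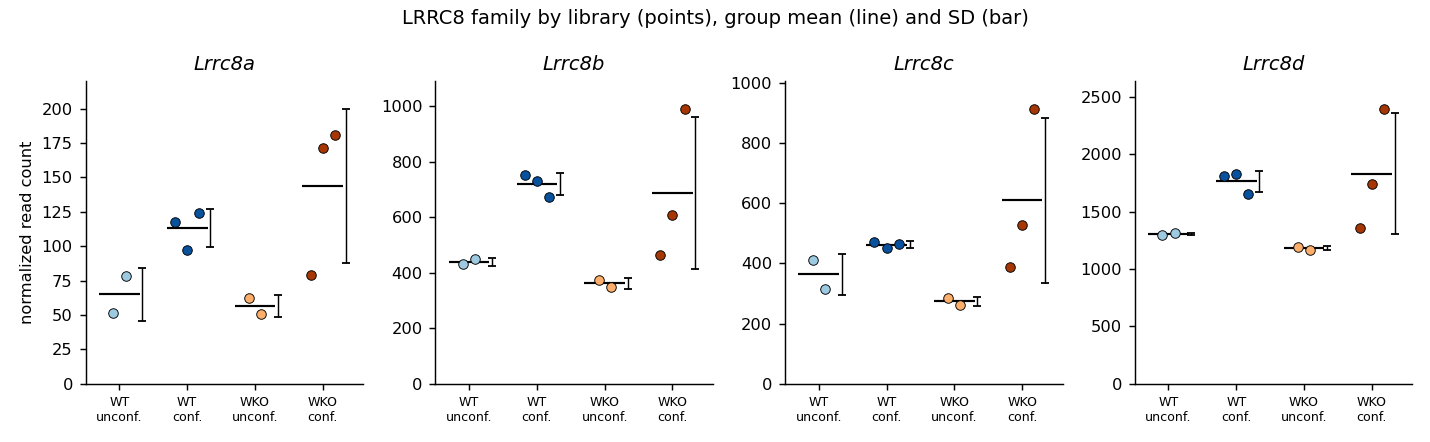
Normalized read count of Lrrc8a, Lrrc8b, Lrrc8c and Lrrc8d by library (points) with the group mean (line) and SD (bar), for WT and WKO cells, unconfined and confined. All confined libraries lie above all unconfined ones for Lrrc8a, Lrrc8b and Lrrc8d, a lack of overlap seen for 7.39% of all genes tested. WKO confined replicate 5 is the highest library of all 4 genes (181, 991, 915 and 2399).

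The caveolins differed in level from each other. Cav2 (ENSMUSG00000000058, chromosome 6, 17281185 to 17289115) and Cav1 (ENSMUSG00000007655, 17306335 to 17341452) lie 17.2 kb apart on the same strand. Cav2 was 1319 and 1396 in WT unconfined, 1126 and 1019 in WKO unconfined, 1289, 1321 and 1603 in WT confined and 1091, 1375 and 1483 in WKO confined libraries. Cav1, the caveolin that most cells need to build caveolae, was 8.55 and 21.1, 6.91 and 14.5, 10.7, 29.3 and 28.9, and 33.0, 11.6 and 125 in the same order of groups. Per kb of exon, Cav2 exceeded Cav1 in every library, by 12.3 times in WKO confined replicate 5 and by 168 times in WKO unconfined replicate 1.

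Neither caveolin passed a test. Cav2 was lower in both WKO unconfined libraries than in both WT ones (log2 difference -0.34, adjusted p = 0.555, limma). In confined cells its groups overlapped (-0.10, adjusted p = 0.782), and over both conditions the difference was -0.22 (95% interval -0.45 to 0.01, adjusted p = 0.272). For confinement it was 0.16 (95% interval -0.07 to 0.40, adjusted p = 0.404). Cav1 gave 0.19 for genotype (95% interval -1.14 to 1.52) and 1.18 for confinement (95% interval -0.14 to 2.51, adjusted p = 0.288). The Cav1 count of 125 in WKO confined replicate 5 stands beside that library's stromal sum of 13713. Stromal cells express Cav1, and their part in this value was not tested.

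Of 14 other genes of the caveola machinery (cavins, EHD ATPases, pacsins, dynamin 2 and flotillins), 11 could be tested. With all libraries, Ehd1, an ATPase that shapes endocytic membranes, was the only 1 of the 11 to pass with limma in any comparison. It rose with confinement over both genotypes, where 6.21% of all genes passed, by 1.05 on the log2 scale (SE 0.273, adjusted p = 0.043, limma). It was 1583 to 1747 in WT unconfined and 1290.4 to 1425 in WKO unconfined libraries, 2824 to 3079 in WT confined libraries, and 2083, 2300.3 and 7160.4 in WKO confined ones. Without WKO confined replicate 5, the library at 7160.4, the difference was 0.77 (adjusted p = 4.84e-05), but the call was lost in 7 of the 10 fits that leave out 1 library (adjusted p up to 0.151). In the fit without that library Ehd1 also passed as lower in WKO cells over both conditions (-0.37, adjusted p = 0.0118). It passed so in only this 1 of the 10 fits, and with all libraries the difference was -0.09 (adjusted p = 0.913, limma). Cavin1, the coat protein of caveolae, was 191 to 411, Cavin2 was 0 to 24.8, Cavin3 was 1.61 to 7.23 and Cav3, the muscle caveolin, was listed at 0.

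Pla2g4a (ENSMUSG00000056220, chromosome 1, 149829618 to 149961290, minus strand), the gene of cPLA2, did not pass in any comparison. It was 287 and 292 in WT unconfined, 421 and 368 in WKO unconfined, 289, 326 and 356 in WT confined and 351, 435 and 274 in WKO confined libraries. The unconfined groups did not overlap (log2 difference 0.44, adjusted p = 0.555, limma). The confined groups did (0.11, adjusted p = 0.827), with the lowest of all 10 values in WKO confined replicate 5. Over both conditions the difference was 0.27 (95% interval -0.03 to 0.57, adjusted p = 0.292), and for confinement it was -0.01.

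Of 29 other phospholipase A2 and arachidonic acid pathway genes, 21 could be tested. For WASp loss over both conditions 1 was higher and 1 lower, where 2.9% of all genes passed as higher and 2.67% as lower. The lower one was Anxa1, which encodes annexin A1, a protein known to restrain cPLA2 and inflammation. It was 29160.0 and 23389 in WT unconfined, 17190.0 and 18899 in WKO unconfined, 29648, 28683 and 30433 in WT confined and 20042, 18634 and 17631 in WKO confined libraries. It fell by 0.60 on the log2 scale over both conditions (SE 0.0846, adjusted p = 0.00243, limma) and passed in each of the 10 fits that leave out 1 library. The higher one was Alox5, the 5-lipoxygenase that begins leukotriene synthesis, by 1.42 (SE 0.336, adjusted p = 0.0318). Its group means were 47.3 ± 6.42 in WT unconfined (SD, n = 2), 158 ± 24.2 in WKO unconfined (n = 2), 42.5 ± 16.9 in WT confined (n = 3) and 98.8 ± 53.7 in WKO confined cells (n = 3). Alox5 lost its call in 7 of the 10 such fits and was 44.3 in WKO confined replicate 5, within the WT range. Neutrophils express Alox5 strongly, and their marker sum, higher in WKO than in WT unconfined cells (24801 to 29904 against 6924 to 10861) and lowest among WKO libraries in WKO confined replicate 5 (6991), moved with it. Their part was not tested.

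With confinement, the gene of this pathway that rose most was Ptgs2, the inducible cyclooxygenase that turns arachidonic acid into prostaglandin precursors. It was 17.1 and 37.4 in WT unconfined and 12.8 and 28.9 in WKO unconfined libraries. It was 515, 636 and 442 in WT confined and 1213, 509.5 and 2617 in WKO confined libraries. It rose by 4.32 on the log2 scale in WT (SE 0.564, adjusted p = 0.00355, limma) and by 5.85 in WKO cells (SE 0.564, adjusted p = 0.000438). The WT call was lost without WT unconfined replicate 1 (adjusted p = 0.0801). Acsl4, which attaches coenzyme A to free arachidonic acid, rose by 0.55 over both genotypes (SE 0.139, adjusted p = 0.0381) and kept its call in 2 of the 10 fits that leave out 1 library. The other 19 tested genes of this list did not pass for confinement over both genotypes, where 6.21% of all genes passed. Within WT and within WKO cells only Ptgs2 passed of the 21, where 1.16% and 1.72% of all genes passed. The median of the 21 over both genotypes was 0.02, beside -0.02 over all genes.

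Of 32 other mechanosensitive or volume-regulated channels, 18 could be tested, and Piezo2, the channel of touch neurons, was at or below 2.35 in every library. Over both conditions 1 was higher and 2 were lower in WKO cells (2.9% and 2.67% of all genes tested), and the median was -0.11, beside 0.00 over all genes. Kcnn4, the calcium-activated potassium channel KCa3.1, fell by 0.76 on the log2 scale (SE 0.111, adjusted p = 0.00295, limma), from 3413 to 3996 in the WT libraries to 1857 to 2722 in the WKO libraries, and passed in all 10 fits that leave out 1 library. Kcnk13, a pore-forming potassium channel of the tandem-pore family, fell by 0.46 (SE 0.084, adjusted p = 0.00969) and lost its call without WKO unconfined replicate 3 (adjusted p = 0.0628). Trpm2, a calcium-permeable channel opened by ADP-ribose during oxidative stress, rose by 0.86 (SE 0.165, adjusted p = 0.0123), from 108 to 171 in WT to 204 to 290.1 in WKO libraries. It lost its call without WT unconfined replicate 3 or WKO unconfined replicate 3 (adjusted p up to 0.0853). For confinement over both genotypes the 2 of 18 that passed were Lrrc8b and Lrrc8d, beside 6.21% of all genes.

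Of 25 channel partners and calcium-handling genes, 23 could be tested. Itpr3, an inositol trisphosphate receptor that releases calcium from the endoplasmic reticulum, fell in WKO cells over both conditions (-0.58, SE 0.141, adjusted p = 0.033, limma) and was the only 1 of 23 to pass, beside 5.57% of all genes. For confinement over both genotypes, where 6.21% of all genes passed, Orai2, a store-operated calcium channel subunit (1.11, SE 0.268, adjusted p = 0.0336), and Itpr2, another inositol trisphosphate receptor (0.48, SE 0.104, adjusted p = 0.0188), rose. Orai2 stood at 1377 in WKO confined replicate 5 and at 425 to 556 in the other confined libraries, and without that library it differed by 0.84 (adjusted p = 0.000412). Each of these 3 genes lost its call in 6 or 7 of the 10 fits that leave out 1 library. The median of the list was 0.18 for confinement, beside -0.02 over all genes tested.

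YAP and TAZ are transcriptional coactivators that follow tension and spreading, and 13 identifiers of their pathway could be tested. Over both conditions 3 of the 13 passed as higher in WKO cells and 0 as lower, beside 2.9% and 2.67% of all genes. In confined cells 4 passed as higher and 0 as lower, where 2.59% of all genes passed in either direction. For confinement over both genotypes 1 passed, as lower, beside 2.07% of all genes. Axl, a receptor tyrosine kinase of macrophages and a YAP target, was 1136 and 1655 in WT unconfined, 2277 and 2702 in WKO unconfined, 637, 581 and 631 in WT confined and 1940.2, 1875 and 1525 in WKO confined libraries. It rose in WKO cells by 1.19 on the log2 scale over both conditions (SE 0.118, adjusted p = 0.000439, limma) and fell by 0.82 with confinement over both genotypes (adjusted p = 0.00204). Both calls passed in each of the 10 fits that leave out 1 library. Ccn1 and Ccn2, secreted matrix-associated proteins, were also higher in WKO cells over both conditions, by 2.08 (adjusted p = 0.0243) and 2.57 (adjusted p = 0.0192), and Tead1, a DNA-binding partner of YAP, in confined cells (3.64, adjusted p = 0.0473). Ccn1, Ccn2 and Tead1 are strongly expressed by stromal cells, and the stromal sum was higher in every WKO library than in the WT libraries of the same condition. Tead1 lost its call in each of the 10 fits that leave out 1 library (adjusted p up to 0.1), with a log2 difference of 3.02 without WKO confined replicate 5 (adjusted p = 0.0962). Without that library Ccn1 (1.75, adjusted p = 0.0139) and Ccn2 (2.32, adjusted p = 0.0144) passed. Over both conditions Ccn1 lost its call in 5 and Ccn2 in 3 of the 10 fits that leave out 1 library. The part of stromal cells was not tested. Another gene model, Gm15270, overlaps 23.2% of the exon bases of Ccn2.

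**Figure D5:**
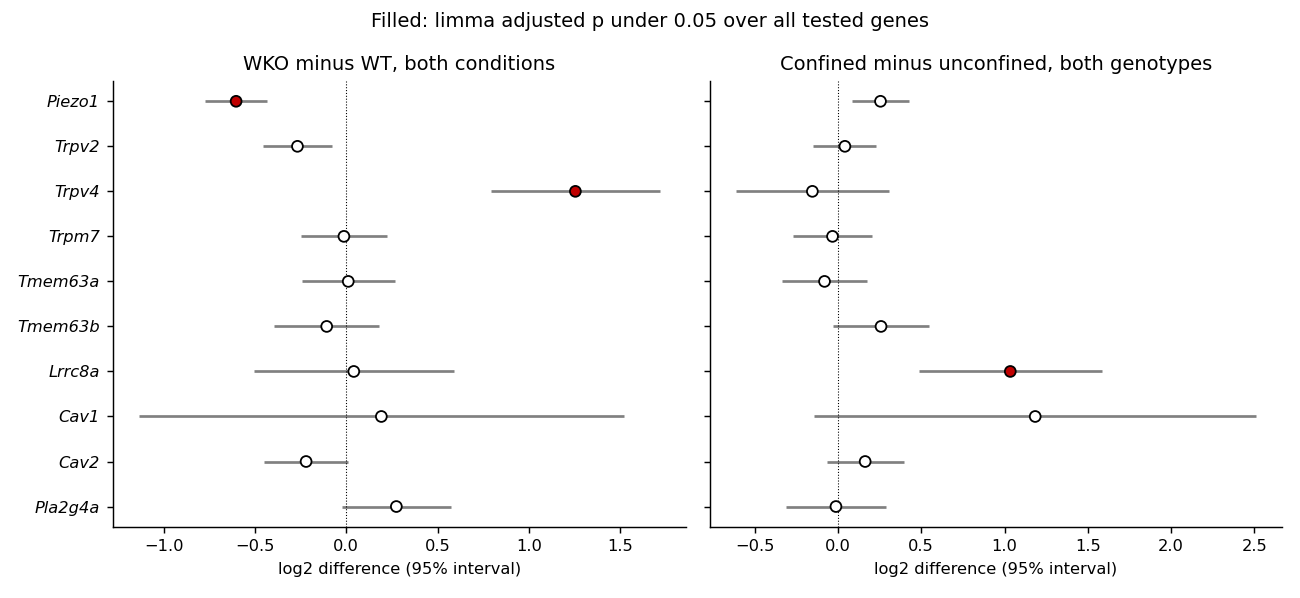
Log2 difference with its 95% interval for each of the 10 genes, WKO minus WT over both conditions (left) and confined minus unconfined over both genotypes (right), with filled points where the limma adjusted p is under 0.05. Piezo1 (-0.60) and Trpv4 (1.25) are filled on the left and Lrrc8a (1.03) on the right, and Cav1 has the widest interval in both panels.

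In the test of the difference between the confinement responses of WKO and WT cells, 0 of 10 members and 0% of all genes passed with limma. At an unadjusted p under 0.05 none of the members passed, beside 2.07% of all genes, and none passed with edgeR or DESeq2. Over the 10 libraries, the genes whose log2 values were most like those of Piezo1 by Pearson's r were Nkain1 (0.990), Acat2 (0.988) and Slc39a6 (0.984). For Trpv4 they were Pdgfc (0.982), Rxra (0.980) and Usp8 (0.979), and for Lrrc8a Chd4 (0.966), Mettl6 (0.966) and Gpd2 (0.965). These are the highest values over all genes compared and come from 4 groups of libraries, so they describe these libraries only. The best match of the remaining members ranged from Eloc for Cav2 (0.962) and Usp49 for Pla2g4a (0.965) to Kdelr2 for Tmem63b (0.887) and Ndufb4 for Tmem63a (0.831).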

How the data were processed

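The deposited table holds, for each gene, a signal in each library: the read count after scaling by the authors. Per the submitters' processing notes, FastQC, Trim Galore, STAR and the builds GRCm38 and mm10 were used; the counting tool, annotation and use of strand are not given in the sources used here. In each library 100% of the deposited signal values were whole multiples of 1 step (tolerance 1e-06), so whole reads were recovered (13295701 to 19329908 per library). Size-factor scaling removes depth, not composition or gene length.

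Groups came from the genotype and treatment labels. Values were tested as log2(count + 1) with limma 3.58.1 (R 4.3.3), 1 mean per group, all 10 libraries, a mean-variance trend and Benjamini-Hochberg adjustment over 12455 genes (mean of at least 10), with a threshold of 0.05. A log2 difference on this scale understates changes of low genes. The script was tested on simulated data. Alternatives were edgeR 4.0.16 and DESeq2 1.42.0 on the recovered reads, TMM and upper-quartile scaling, a pseudocount of 5, no filter, a replicate block, each library left out, and only the groups compared. Positions, exon lengths and overlaps come from GENCODE M21 (GRCm38), similarity from blastn 2.17.0 and promoters from RefSeq.

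Members and lists were chosen with earlier results of these data known. The genes named are the 10 members, list genes that pass or are among the 3 highest of a list (not all are described), and the 3 genes most like each member (mean of at least 50). Chi-square per degree of freedom between replicates was 7.56 to 78.3, so all libraries were counted separately. No batch is labelled.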

Additional observations from a re-analysis of the deposited data

How the results depend on the processing

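Of 679 member values under alternatives, 608 kept their direction and side of the threshold, 46 changed sign, 10 gained and 15 lost a call; no member called with all libraries changed sign. Members passing for WKO against WT in unconfined cells went from 0 to 1 with DESeq2, the replicate block or only the groups compared (leaving out 1 library, 0 to 1). In confined cells they went from 2 to 1 with the replicate block (0 to 2), and over both conditions they ranged from 1 to 3. For confinement in WKO cells they went from 0 to 1 with DESeq2 (0 to 1), and over both genotypes from 1 to 2 with DESeq2 and 0 with no filter or the block (0 to 2). All genes passing for WKO against WT went from 18 to 181 (DESeq2), 10 (no filter), 245 (replicate block) and 189 (only the groups compared) in unconfined cells (4 to 141 leaving out 1 library), from 322 to 775 (DESeq2), 186 (no filter) and 90 (only the groups compared) in confined cells (58 to 701), and from 694 to 1147 (DESeq2) and 438 (no filter) over both (169 to 1115). For confinement they went from 144 to 332 (DESeq2) and 455 (only the groups compared) in WT (22 to 397), from 214 to 484 and 33 in WKO (43 to 1043), and from 773 to 1219 (DESeq2) and 383 (block) over both (288 to 1807). The counts of 701, 1115, 1043 and 1807 came without WKO confined replicate 1, and those of 141 and 397 without WKO confined replicate 5.

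Some signs that changed belonged to differences near 0, and others to larger differences of Cav1, which has few reads. For Cav1, the 0.78 for WKO against WT in confined cells (SE 0.769) changed sign without WKO confined replicate 5. Its -0.39 in unconfined cells (SE 0.942) changed sign without WT unconfined replicate 3, and its 0.60 for confinement in WT (SE 0.860) without WT unconfined replicate 1. Tmem63a for genotype was -0.0088 with TMM; Pla2g4a for confinement was 0.0021 with edgeR, 0.0017 with DESeq2 and 0.0033 with the replicate block; Cav2 for confinement was -0.0066 with the block; the Piezo1 interaction was -0.0085 with edgeR, -0.012 with TMM, -0.011 with upper-quartile scaling and -0.027 with the block. Leaving out 1 library, the log2 difference for genotype over both conditions ranged from -0.067 to 0.067 (Trpm7), -0.089 to 0.11 (Tmem63a), -0.22 to 0.0028 (Tmem63b), -0.11 to 0.23 (Lrrc8a) and -0.24 to 0.59 (Cav1), and in confined cells from -0.056 to 0.27 (Pla2g4a) and -0.19 to 0.031 (Cav2). For confinement over both genotypes it ranged from -0.086 to 0.048 (Trpm7), -0.018 to 0.10 (Trpv2), -0.31 to 0.0012 (Trpv4), -0.18 to 0.020 (Tmem63a) and -0.093 to 0.073 (Pla2g4a), for Trpv4 in WKO cells from -0.16 to 0.46, and for the Piezo1 interaction from -0.12 to 0.13.

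Same-numbered libraries deviated together with r of -0.11 to 0.076, so no pairing by number was seen. In groups of 2 libraries the deviations mirror each other, so this check could miss a shared preparation. With the replicate block Piezo1 passed in unconfined cells (adjusted p = 0.0217, limma), while Trpv4 in confined cells (1.26, adjusted p = 0.059) and Lrrc8a for confinement (0.55, adjusted p = 0.462) did not. The causes of these changes were not tested. The planned permutation test of members below the filter was not run because all 10 passed it. Cav1, at 7 to 104 recovered reads per library, is limited by few reads.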
